A study of Mus musculus with 28 samples.

Results

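The GIMAP genes (GTPases of the immunity-associated protein family) form a cluster on mouse chromosome 6 and were examined here by their 8 members in the RNA-seq table of this study, Gimap1, Gimap3, Gimap4, Gimap5, Gimap6, Gimap7, Gimap8 and Gimap9, of 24089 genes in all. The members were chosen by name and not by a measured value. GIMAP proteins bind guanine nucleotides, many sit on internal membranes of lymphocytes, and loss of Gimap5 is known to deplete peripheral T cells in rodents. The family is expressed mainly in lymphocytes and is known for its part in T cell survival, and transforming growth factor-β (TGF-β) is a cytokine that acts on T cells through a receptor whose type I chain is encoded by Tgfbr1.

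Naive CD4+ T cells of spleen and lymph nodes were stimulated through the T cell receptor with anti-CD3 and anti-CD28 and cultured in medium alone (control), with either TGF-β or IL-4, or with both cytokines (TGF-β + IL-4), the condition that drives Th9 differentiation. The mice were taken to be Tgfbr1 f/f Ert2-cre+ on a C57BL/6 background, aged 8 to 10 weeks and of both sexes. The sex of each mouse is not given in the sources used here. Sample titles name oil and tamoxifen for DNase-seq and only WT and KO for RNA-seq. The paper also lists Tgfbr1 f/f Cd4-cre+ mice and does not say which line gave the RNA-seq cells. In the Ert2-cre line WT denotes mice given oil and KO denotes mice given tamoxifen, which activates the Cre recombinase. The loss of Tgfbr1 and exposure to tamoxifen and active Cre then cannot be told apart. RNA-seq covered 8 groups of 3 libraries. Sample titles carry the numbers 1, 2 and 3 for each genotype, here taken as mice 1, 2 and 3. The sources used here do not say that a number stands for a single mouse. DNase-seq covered 4 further libraries, 1 for each genotype in medium alone and 1 for each in the Th9 condition. Their titles carry the number 3 for each genotype, and whether these are the mice of RNA-seq replicate 3 is not given in the sources used here.

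The headings of the RNA-seq table conflict with read counts given for 8 WT libraries (mice 1 and 3) in the supplement of the study. The match was the percent of genes at 0 in both or above 0 in both, over the supplement's genes (1991 or more per library). For each of these 8, the column at its place in library order matched best, with at least 99.8% against at most 84.2% in another column. Only 2 of the 8 matched columns carried the matching heading. The 24 columns were therefore read by position, WT before KO, and within each mouse the control first, then TGF-β, then IL-4 and last the pair of cytokines. This reading puts 16 of 24 columns in another culture than their heading, and no such check exists for 16 columns, including all 12 of KO. A column's genotype is the same under both readings. Every statement about a cytokine therefore rests on the position reading, whereas a difference between all KO and all WT libraries does not.

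Values are RPKM, read counts scaled for gene length and for the mapped reads of the library, so levels can be compared between genes. Total reads are not known, and the relative depth recovered from the steps between low values ran from 0.793 to 1.65, with KO TGF-β + IL-4 replicate 2 the shallowest. That library stands apart from its group, with Klf2, a transcription factor of quiescent T cells, at 11.5 RPKM against 1.63 and 1.72. Results that rest on that library are given with and without it. In WT, Klf2 had 1.45 to 2.74 RPKM in control, 6.63 to 11.8 in TGF-β and 6.18 to 10.1 with both cytokines. Tgfbr1 lay at 3.0 to 3.3 RPKM in WT control, 13.9 to 14.5 in WT TGF-β and 2.3 to 5.2 in all KO libraries. The highest KO value of Tgfbr1, 5.18 RPKM, was in KO TGF-β + IL-4 replicate 2. CD4 T cell markers summed to 1111 RPKM or more in every library, and the sums of B cell, CD8 T cell, NK cell and myeloid markers each stayed at or under 36.3. In bulk RNA, fewer cells of a type and less RNA per cell cannot be told apart.

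In mm9 with the GENCODE vM1 annotation, the 8 genes span 119286 bases of chromosome 6, from 48597233 to 48716518. On the plus strand lie Gimap8 (48597233 to 48610874), Gimap9 (48626128 to 48629113), Gimap4 (48634548 to 48642061), Gimap1 (48668606 to 48702599), Gimap7 (48668620 to 48674635) and Gimap5 (48696196 to 48704209). Gimap6 (48651581 to 48658224) and Gimap3 (48715088 to 48716518) lie on the minus strand. The Gimap1 model overlaps all 6016 bases of Gimap7 and 6404 bases of Gimap5 on the same strand, so reads in these stretches could be shared between genes, and how the authors assigned them is not given in the sources used here.

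The 250 bases before the RefSeq start of 4 members are shown because these genes carry the contrast described below: Gimap7, Gimap5 and Gimap6 passed the test between genotypes under TGF-β, and Gimap8 did not. Sequences are from the RefSeq promoter table (GRCm38.p6), run 5′ to 3′ on the strand of the gene, and each had 1 exact match in mm9, whose coordinates are given. Capitals mark a RUNX motif (TGTGGT, here as its reverse complement).
Gimap7 (plus strand, chr6:48668370-48668619): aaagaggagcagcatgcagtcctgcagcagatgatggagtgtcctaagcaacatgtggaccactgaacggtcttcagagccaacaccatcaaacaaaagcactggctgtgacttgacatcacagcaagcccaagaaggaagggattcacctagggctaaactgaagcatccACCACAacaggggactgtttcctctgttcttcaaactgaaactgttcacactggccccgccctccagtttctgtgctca
Gimap5 (plus strand, chr6:48695946-48696195): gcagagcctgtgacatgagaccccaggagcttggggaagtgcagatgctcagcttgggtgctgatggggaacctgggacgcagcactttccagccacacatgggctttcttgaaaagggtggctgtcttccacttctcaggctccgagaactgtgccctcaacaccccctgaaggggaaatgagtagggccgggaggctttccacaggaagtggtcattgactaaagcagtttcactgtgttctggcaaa
Gimap6 (minus strand, chr6:48658244-48658493): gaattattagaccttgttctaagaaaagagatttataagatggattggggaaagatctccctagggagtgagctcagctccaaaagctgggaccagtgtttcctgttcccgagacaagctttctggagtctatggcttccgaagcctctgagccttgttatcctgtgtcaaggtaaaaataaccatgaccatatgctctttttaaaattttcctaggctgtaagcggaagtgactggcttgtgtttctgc
Gimap8 (plus strand, chr6:48596983-48597232): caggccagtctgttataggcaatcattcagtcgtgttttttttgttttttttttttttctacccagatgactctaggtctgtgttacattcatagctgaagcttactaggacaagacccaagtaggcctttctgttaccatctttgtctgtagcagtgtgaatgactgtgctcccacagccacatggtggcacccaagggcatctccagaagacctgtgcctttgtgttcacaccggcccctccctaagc

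Motifs were searched on both strands in the 9 RefSeq promoters of the 8 members, each 300 bases long (250 before the start and 50 after). The RUNX motif was in 3 of them, those of Gimap1, Gimap4 and Gimap7, and in 16.7% of all 32544 promoters of this length. The FOXO motif (GTAAACA) was in the promoter of Gimap3 and in 3.66% of all promoters. None of the 9 held the SMAD motif (GTCTAGAC, in 0.215% of all promoters), the ETS motif (CCGGAAGT, 3.92%), the KLF motif (CCACACCC, 3.57%) or the STAT6 motif (6.98%). No promoter held more than 1 match, so none overlapped. A match is a description of the letters and not of binding.

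Across the 24 libraries Gimap1 was the most abundant member, with a mean of 95.2 RPKM, followed by Gimap3 (86.5), Gimap6 (64.8), Gimap5 (42.3), Gimap4 (40.2) and Gimap9 (37.5). Gimap7 (6.46) and Gimap8 (4.59) were the lowest. The Gimap1 model overlaps Gimap7 and Gimap5, and whether shared reads affect the levels of these genes was not tested. All 8 were above 0 in every library, and all passed the minimum mean of 1 RPKM set for the tests. Between neighbours in this order, the ranges over the 24 libraries overlapped for every pair except Gimap9 and Gimap7.

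**Figure D1:**
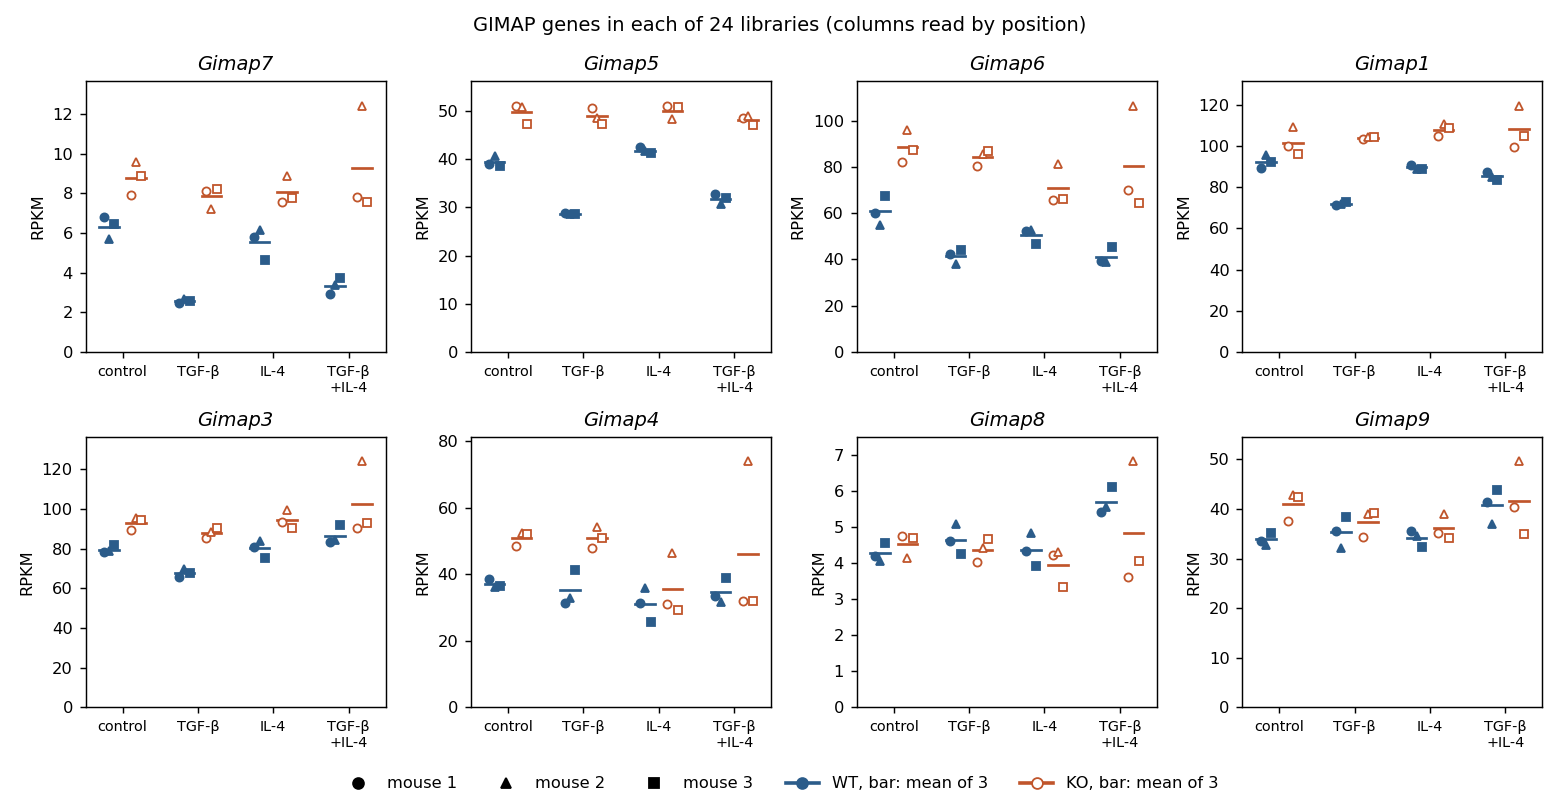
RPKM of each GIMAP gene (vertical axes, each from 0) in the 24 libraries, by culture (horizontal axis), with WT filled and KO open, symbols for the 3 mice and bars for the mean of 3. Gimap7, Gimap5, Gimap6, Gimap1 and Gimap3 were lower in WT TGF-β than in WT control with no overlap, 5 of 8 against 17.3% of all genes, and in KO TGF-β all 8 genes overlapped KO control.

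The first question was how the family responded to TGF-β when the receptor was present. Gimap7, which is thought to act on other GIMAP proteins by stimulating their GTPase activity, had 6.81, 5.67 and 6.43 RPKM in WT control (mice 1, 2 and 3) and 2.48, 2.68 and 2.56 RPKM in WT TGF-β. It fell by 1.03 on the log2(RPKM + 1) scale (SE 0.0775, adjusted p = 6.73e-05, limma), to 40.8% of the control mean in RPKM. The groups did not overlap. A gene was called where its Benjamini-Hochberg adjusted p was under 0.01 and its fold over 1.5, and Gimap7 was the only member called lower, 1 of 8 against 2.28% of the 9726 genes tested.

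Further members were lower by less than 1.5-fold. Gimap5, whose loss removes T cells in rodents, had 38.97, 40.60 and 38.61 RPKM in WT control and 28.79, 28.59 and 28.70 RPKM in WT TGF-β (log2 change -0.44, SE 0.0435, adjusted p = 0.000275). Gimap6, a member reported to take part in autophagy, had 60.31, 54.72 and 67.55 RPKM in control and 42.42, 37.88 and 44.09 RPKM in TGF-β (log2 change -0.54, SE 0.0867, adjusted p = 0.00365). The TGF-β values of both genes lay wholly below those of control. Gimap1, which is needed for mature B and T cells, went from 89.5 to 95.6 RPKM in control to 71.5 to 72.8 in TGF-β (log2 change -0.35, adjusted p = 0.000783). Gimap3, a close relative of Gimap5, went from 78.2 to 81.8 RPKM to 65.9 to 69.8 (log2 change -0.23, adjusted p = 0.00841). With the adjusted p alone and no fold minimum, a rule added after the values were seen, 5 of 8 members were called lower, against 4.38% of all genes.

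Gimap4, Gimap8 and Gimap9 did not pass the test, with log2 changes of -0.08, 0.10 and 0.06 and adjusted p of 0.611, 0.452 and 0.633. Gimap8 had 4.06 to 4.58 RPKM in WT control and 4.25 to 5.11 in WT TGF-β. Gimap9 had 32.8 to 35.2 RPKM in control and 32.1 to 38.4 in TGF-β, so both genes overlapped between the groups. All 3 WT TGF-β libraries lay below all 3 of WT control for 5 of 8 members, against 17.3% of 9726 genes. The median log2 change of the 8 members was -0.29, against 0.01 over all genes tested.

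The 4 WT control and WT TGF-β libraries of mice 1 and 3, whose place is backed by read counts, gave the same call. In them Gimap7 fell by 1.11 (SE 0.0948, adjusted p = 4.25e-05). Read by heading, no member was called in this comparison, and Gimap7 had a log2 change of -0.31 (adjusted p = 0.910). Leaving out WT TGF-β replicate 3 or WT control replicate 2 added Gimap6 to the calls. Marker genes of other cells also differed between these libraries: the sum of CD8 T cell markers was 24.8 to 26.9 RPKM in WT control and 16.6 to 17.3 in WT TGF-β, that of B cell markers 14.4 to 22.5 and 10.9 to 13.1, and that of NK cell markers 2.11 to 2.30 and 0.558 to 0.802. Myeloid markers were higher, at 4.81 to 7.02 and 7.14 to 19.9. Their part in the result was not tested.

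IL-4 alone gave another picture in WT cells. No member was called (0 of 8 against 1.29% of 9680 genes in either direction, limma), and 2 of 8 had an unadjusted p under 0.05, against 17.4% of all genes. Gimap7 had 5.80, 6.13 and 4.65 RPKM with IL-4, which overlapped the control values, and Gimap5 had 42.5, 41.6 and 41.3 RPKM, slightly above all 3 control values (log2 change 0.08, adjusted p = 0.402). Gimap6 with IL-4 lay at 52.4, 52.6 and 46.5 RPKM, below its control values, with a log2 change of -0.26 (adjusted p = 0.139).

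With TGF-β and IL-4 together, the lower level of Gimap7 was again seen. Gimap7 had 2.92, 3.35 and 3.71 RPKM in WT TGF-β + IL-4 and fell by 0.76 on the log2 scale from control (SE 0.0934, adjusted p = 0.000238), the only member called lower (1 of 8 against 2.84% of 9816 genes). Gimap5 and Gimap6 joined it when no fold minimum was set, 3 of 8 against 11% of all genes, with log2 changes of -0.30 and -0.55. Gimap8 moved the other way, from 4.22, 4.06 and 4.58 RPKM in control to 5.44, 5.56 and 6.11 with both cytokines (log2 change 0.34, SE 0.0754, adjusted p = 0.00585). It was the only member higher under that rule, 1 of 8 against 16.5% of all genes, a share close to the background. Gimap9, its neighbour in the cluster, had 41.4, 37.0 and 43.9 RPKM, above all control values, with an adjusted p of 0.0131.

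Against TGF-β alone, the addition of IL-4 led to no call (0 of 8 against 3.03% of 9852 genes, limma), with an unadjusted p under 0.05 for 6 of 8 members and 35.6% of all genes. By adjusted p alone Gimap1 (log2 change 0.24) and Gimap3 (0.35) were higher, 2 of 8 against 6.43% of all genes. Gimap3 with both cytokines lay at 83.4, 84.5 and 91.7 RPKM, above both the TGF-β and the control values. Gimap7 was higher by 0.27 on the log2 scale (adjusted p = 0.0546) and the change of Gimap6 was -0.01 (SE 0.0745).

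Against IL-4 alone, the addition of TGF-β lowered Gimap7 by a log2 change of -0.59 (SE 0.107, adjusted p = 0.00189), close to the 1.5-fold limit, 1 of 8 against 3.21% of 9829 genes. The call was lost without WT TGF-β + IL-4 replicate 1, WT IL-4 replicate 1 or WT IL-4 replicate 2 (log2 changes of -0.52, -0.56 and -0.52). Without the fold minimum Gimap5 (-0.38) and Gimap6 (-0.29) were lower too, 3 of 8 against 13.1% of all genes. These comparisons share the WT groups, so their values are given side by side and not as separate support. The interaction of the 2 cytokines, a test of whether the TGF-β effect differed with IL-4 present, gave no call (0 of 8 against 1.77% of 9794 genes, limma), with an unadjusted p under 0.05 in 3 of 8 members and 26.7% of genes. Gimap1 passed it without the fold minimum (0.29, adjusted p = 0.00604), 1 of 8 against 2.77% of all genes.

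**Figure D2:**
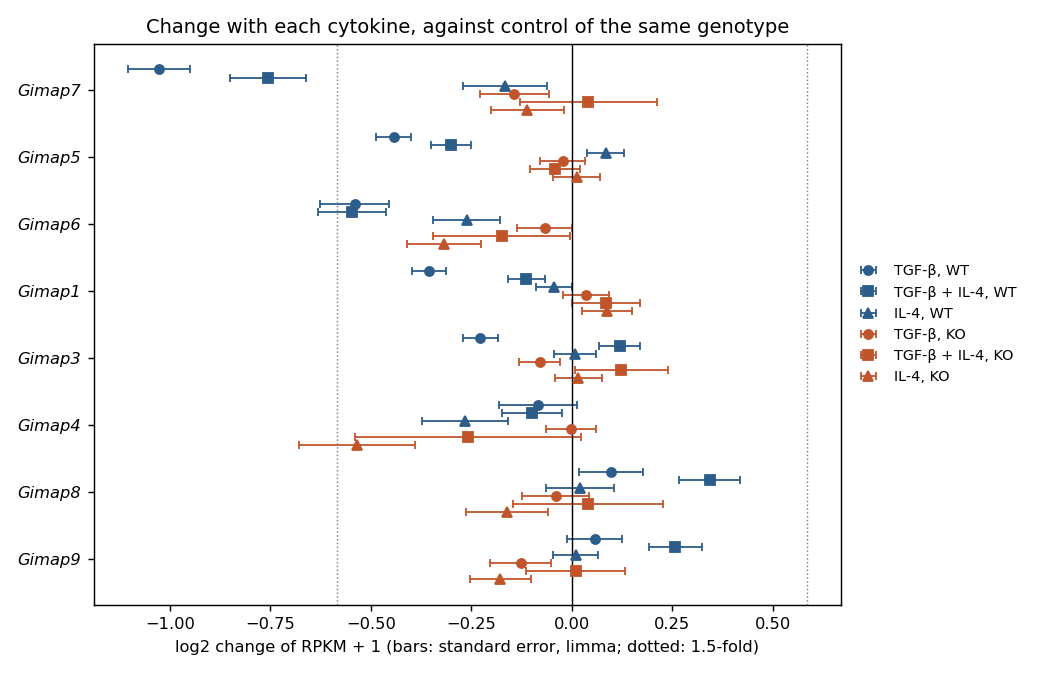
Change of each GIMAP gene with TGF-β, IL-4 or both against control of the same genotype (horizontal axis, log2 of RPKM + 1, bars for the SE from limma, dotted lines at 1.5-fold), WT blue and KO orange, 3 libraries per group. Only Gimap7 in WT with TGF-β (-1.03) and with both cytokines (-0.76) lies beyond 1.5-fold.

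The next question was whether these changes were seen without the receptor. In KO cells TGF-β called no member (0 of 8 against 0.0105% of 9563 genes in either direction, limma), and no member had an unadjusted p under 0.05, against 2.57% of all genes. Gimap7 had 7.91, 9.56 and 8.89 RPKM in KO control and 8.11, 7.23 and 8.21 in KO TGF-β (log2 change -0.14, SE 0.0861). Gimap5 had 51.00, 50.84 and 47.36 RPKM in KO control and 50.74, 48.63 and 47.43 in KO TGF-β (log2 change -0.02, SE 0.0558). The 2 KO groups overlapped for all 8 members, while 7.46% of genes did not overlap in either direction.

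The difference between the genotypes in the effect of TGF-β was tested as an interaction. Gimap7 had an interaction of 0.88 (SE 0.116, adjusted p = 0.000224, limma), the only member called, 1 of 8 against 1.86% of 9678 genes higher. The call held without each of the 12 libraries in turn and under every setting tried that kept the position reading, with values of 0.82 or more. By adjusted p alone Gimap5 (0.42, adjusted p = 0.000769) and Gimap1 (0.39, adjusted p = 0.00217) were added, 3 of 8 against 2.72% of all genes. Reads in the stretches that the Gimap1 model shares with Gimap7 and Gimap5 could add to this count, which was not tested. Gimap6 had 0.47 with an adjusted p of 0.0191. Read by heading, no member was called, and Gimap7 had 0.36 (adjusted p = 0.821).

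IL-4 in KO cells also gave no call (0 of 8 against 2.51% of 9600 genes, limma), with an unadjusted p under 0.05 for 3 of 8 members and 20.6% of genes. Gimap4 is a member linked to the death of T cells, and its levels split by mouse. In KO control it had 48.6, 52.4 and 52.0 RPKM, with IL-4 31.2, 46.3 and 29.3 RPKM, and with both cytokines 32.0, 74.0 and 32.1 RPKM. Mouse 2 was thus high in both cultures with IL-4 and mice 1 and 3 were low. The log2 change with IL-4 was -0.53 (SE 0.145, adjusted p = 0.0610), and without KO IL-4 replicate 2 it was -0.73 (SE 0.0722, adjusted p = 0.000725), which is past the threshold.

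With both cytokines in KO cells no member was called (0 of 8 against 1.92% of 9653 genes, limma) and none had an unadjusted p under 0.05, against 14.8% of genes. Without KO TGF-β + IL-4 replicate 2, Gimap4 was called lower (-0.65, SE 0.0766, adjusted p = 0.000797). That library had the highest value of its group for 8 of 8 members, for example 106.6 RPKM of Gimap6 against 69.9 and 64.5, and 12.4 RPKM of Gimap7 against 7.83 and 7.55, while for Gimap5 it had 49.0 RPKM against 48.7 and 47.1. In the same mouse Klf2 had 4.66 RPKM in KO IL-4, against 2.39 and 1.79 in mice 1 and 3. Whether the state of the cells of this mouse has a part in the Gimap4 values was not tested.

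The interaction of genotype with IL-4 gave no call (0 of 8 against 0.0414% of 9668 genes, limma), and no member had an unadjusted p under 0.05, against 8.21% of genes. That of genotype with TGF-β + IL-4 gave none either (0 of 8 against 4.18% of 9756 genes, limma), with an unadjusted p under 0.05 in 2 of 8 members and 28.0% of genes. Gimap7 had 0.80 there (SE 0.212, adjusted p = 0.0273), and without KO TGF-β + IL-4 replicate 2 it had 0.59 (SE 0.138, adjusted p = 0.0104). Gimap4 and Gimap8 had the other sign, at -0.16 and -0.30 (adjusted p of 0.801 and 0.396). Without that library they had -0.55 (SE 0.106, adjusted p = 0.00329) and -0.54 (SE 0.117, adjusted p = 0.00710), both under 1.5-fold.

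The genotypes were then compared within each culture. In control cultures no member passed the fold of 1.5 (0 of 8 against 2.46% of 9644 genes, limma), although 6 of 8 members had an unadjusted p under 0.05, against 30.1% of genes. Without the fold minimum Gimap4 (0.45, SE 0.0569, adjusted p = 0.00211), Gimap5 (0.33, SE 0.0550, adjusted p = 0.00740) and Gimap6 (0.54, SE 0.0881, adjusted p = 0.00661) were higher in KO, 3 of 8 against 1.62% of all genes. Gimap7 had 0.42 with an adjusted p of 0.0215. Gimap6 was called without WT control replicate 3. In these libraries the CD8 T cell marker sum was 24.8 to 26.9 RPKM in WT and 14.8 to 16.7 in KO, and the B cell marker sum 14.4 to 22.5 and 9.07 to 10.5. Their part in the result was not tested.

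Under TGF-β, Gimap7 (1.31, SE 0.0758, adjusted p = 4.33e-06), Gimap6 (1.01, SE 0.0642, adjusted p = 6.91e-06) and Gimap5 (0.75, SE 0.0470, adjusted p = 6.45e-06) were called higher in KO, 3 of 8 against 3.15% of 9687 genes. Gimap6 had 80.5, 85.7 and 87.1 RPKM in KO TGF-β, 204% of the WT TGF-β mean. Without the fold minimum 6 of 8 members were higher, against 10.6% of all genes, and Gimap8 (-0.07) and Gimap9 (0.08) did not pass. Marker genes of other cells differed here too. The sum of CD8 T cell markers was 16.6 to 17.3 RPKM in WT and 14.3 to 15.2 in KO, with Cd8a at 5.04 to 5.58 and 1.28 to 1.53. The sum of B cell markers was 10.9 to 13.1 and 7.89 to 10.5, with Cd79a at 4.89 to 6.31 and 2.11 to 3.19, and that of NK cell markers 0.558 to 0.802 and 1.47 to 2.24. Myeloid markers overlapped, at 7.14 to 19.9 and 2.08 to 11.6. Their part in the result was not tested.

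Under IL-4 no member was called (0 of 8 against 2.99% of 9679 genes, limma), with an unadjusted p under 0.05 in 5 of 8 members and 28.1% of genes. Gimap1 (0.27) and Gimap6 (0.48) were higher without the fold minimum, 2 of 8 against 1.28% of all genes. Neither passed without KO IL-4 replicate 2 (adjusted p of 0.0207 and 0.0114). Under TGF-β + IL-4 Gimap7 (1.22, SE 0.174, adjusted p = 0.00143), Gimap6 (0.91, SE 0.171, adjusted p = 0.00504) and Gimap5 (0.59, SE 0.0534, adjusted p = 0.000166) were called higher, 3 of 8 against 2.71% of 9851 genes, and without the fold minimum 4 of 8 against 9.94%. In this culture Cd8a had 8.13 to 8.87 RPKM in WT and 1.48 to 3.85 in KO, while the sum of CD8 T cell markers was 25.3 to 26.7 and 26.3 to 28.3. The sum of B cell markers was 15.7 to 33.3 and 14.8 to 26.0, that of NK cell markers 1.51 to 2.03 and 3.06 to 4.63, and that of myeloid markers 8.40 to 18.2 and 3.24 to 5.42. Their part in the result was not tested. Without KO TGF-β + IL-4 replicate 2 the changes were 1.01 for Gimap7, 0.69 for Gimap6 and 0.58 for Gimap5, the last just under the fold. Gimap8 was then lower in KO by less than 1.5-fold (-0.47, SE 0.0962, adjusted p = 0.00366), against -0.24 (adjusted p = 0.361) with that library. Gimap6 was not called without WT TGF-β + IL-4 replicate 1 or 3, and Gimap7 alone was called without KO TGF-β + IL-4 replicate 1 or WT TGF-β + IL-4 replicate 2.

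**Figure D3:**
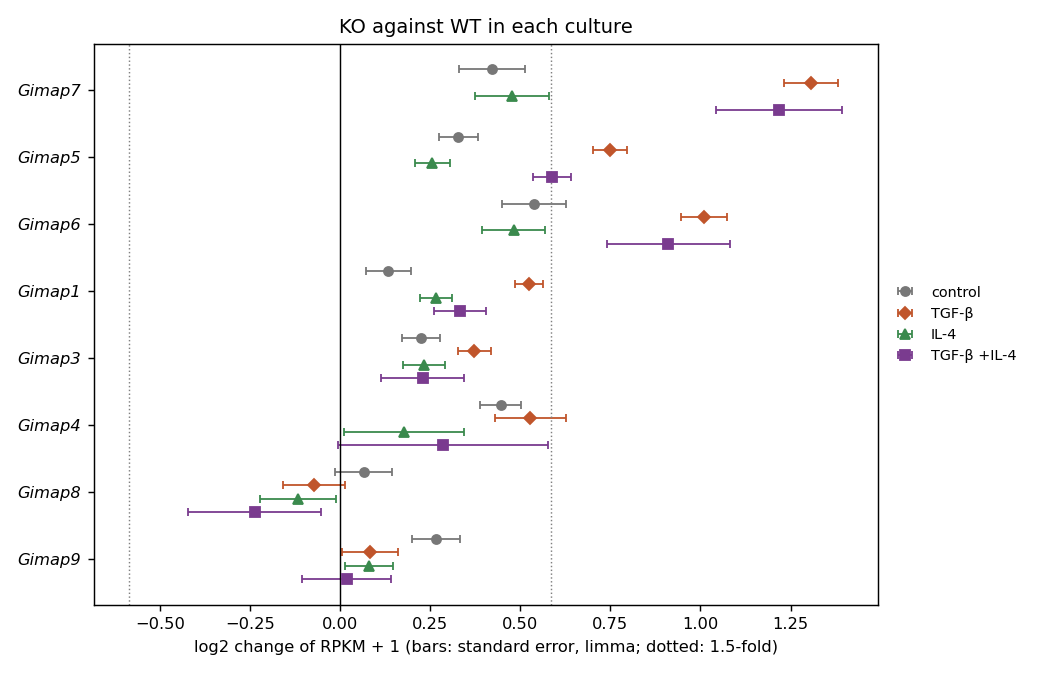
KO against WT in each culture for each GIMAP gene (horizontal axis, log2 of RPKM + 1, bars for the SE from limma, dotted lines at 1.5-fold), with 3 libraries per genotype and culture. Gimap7, Gimap6 and Gimap5 lie beyond 1.5-fold under TGF-β and under both cytokines, and no gene does under control or IL-4.

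In all 24 libraries together, with culture as a covariate, 2 members were called higher in KO, Gimap7 (0.86, SE 0.106, adjusted p = 8.00e-07) and Gimap6 (0.74, SE 0.0790, adjusted p = 1.29e-07), 2 of 8 against 1.18% of 9726 genes. Each of the 3 mice per genotype enters this fit 4 times with no mouse term, so the p-values treat its libraries as separate. Without the fold minimum 6 of 8 were higher against 23.2% of all genes, the exceptions being Gimap8 (-0.09, adjusted p = 0.272) and Gimap9 (0.11, adjusted p = 0.0637). This comparison gave the same 2 calls by heading, since the genotype of a column does not depend on the reading. For Gimap7 the 12 WT libraries had 2.48 to 6.81 RPKM and the 12 KO libraries 7.23 to 12.4. For Gimap5 they had 28.6 to 42.5 and 47.1 to 51.2, and for Gimap1 71.5 to 95.6 and 96.0 to 119.7. In these 3 genes every KO library lay above every WT library, 3 of 8 members against 2.05% of 9726 genes. Reads in the stretches that the Gimap1 model shares with Gimap7 and Gimap5 could add to this count, which was not tested. Gimap6 overlapped, with 37.9 to 67.5 RPKM in WT and 64.5 to 106.6 in KO. Cd8a, 1 of 2 CD8 T cell markers, did not overlap either, with 5.04 to 8.87 RPKM in WT and 1.14 to 3.85 in KO. The sum of CD8 T cell markers did overlap, at 16.6 to 36.3 RPKM in WT and 14.3 to 28.3 in KO. The part of these markers in the differences was not tested.

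The members did not all vary together. As a description over the 12 WT libraries, which share 4 cultures and 3 mice, Gimap5 and Gimap7 had a Pearson r of 0.92 on log2(RPKM + 1), Gimap6 and Gimap7 0.89, Gimap1 and Gimap5 0.87, and Gimap8 and Gimap9 0.70. Gimap8 ran against Gimap5 (-0.51) and Gimap6 (-0.50). Over the 12 KO libraries Gimap4 and Gimap6 had 0.97, and Gimap5 had values from -0.26 to 0.16 with the other 7. Without KO TGF-β + IL-4 replicate 2, the r of Gimap4 and Gimap6 was 0.95 over 11 libraries and that of Gimap3 and Gimap7 went from 0.89 to 0.57. Gimap1, at 0.16 to 0.73 with the other 7 over 12 KO libraries, had -0.34 to 0.31 over these 11. The overlap of the Gimap1 model with Gimap5 and Gimap7 can add to their correlation and was not tested.

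**Figure D4:**
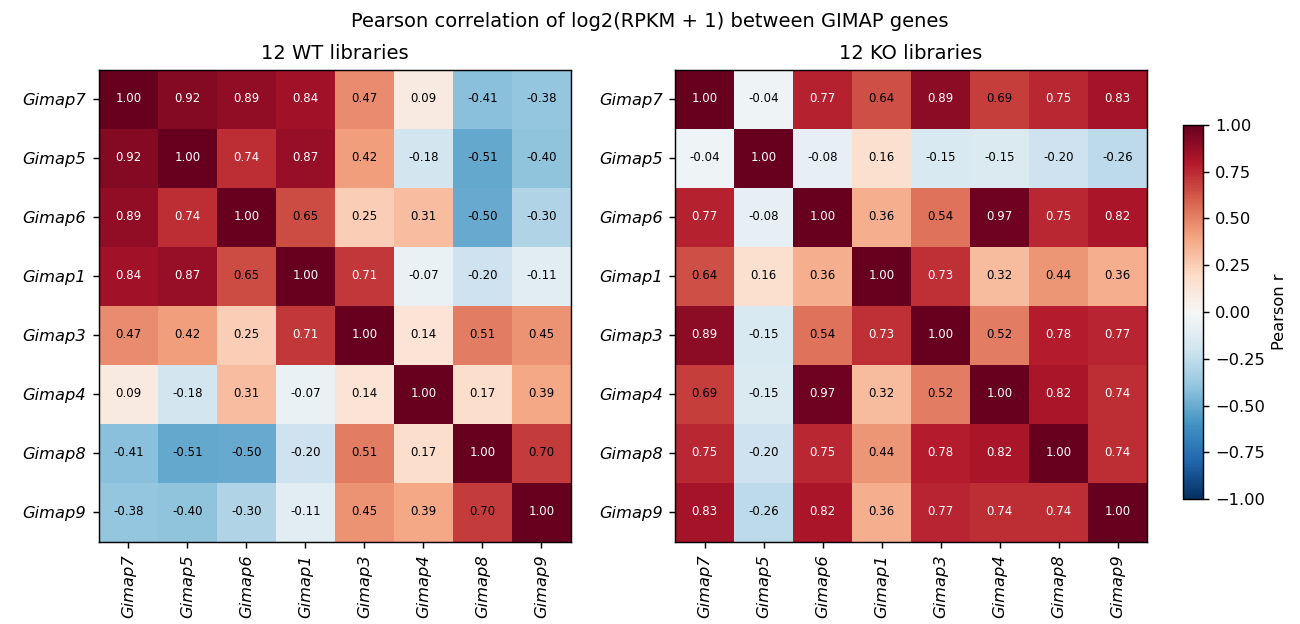
Pearson r of log2(RPKM + 1) between GIMAP genes over 12 WT libraries (left) and 12 KO libraries (right), on a colour scale from -1 to 1, with r printed in each cell. Gimap7, Gimap5, Gimap6 and Gimap1 form a block of 0.65 to 0.92 in WT, and in KO Gimap5 has -0.26 to 0.16 with the others. Without KO TGF-β + IL-4 replicate 2 Gimap1 is as weakly related to them, at -0.34 to 0.31.

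The 10 genes whose pattern was most like the mean of the standardised members over the 24 libraries were Traf3ip3 (r = 0.93), Gbp7 (0.93), Fam49a, Pecam1, Ms4a6d, Tbk1, Actr3, Osbpl9, Ms4a6b and Gbp9 (0.90). Traf3ip3, which encodes a membrane protein of lymphocytes, had 12.9 to 26.4 RPKM in WT and 22.4 to 37.4 in KO. Without KO TGF-β + IL-4 replicate 2 it ranked 3 by the same measure (r = 0.94), Ms4a6b ranked 4 and Osbpl9 ranked 8. The other 7 left the first 10, at ranks from 15 (Fam49a, r = 0.89) to 34 (Tbk1, r = 0.86). Most places in this list thus rest on that library, while r stayed at 0.86 or more.

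Genes of related families were counted in the comparison of WT TGF-β with control. Of 11 interferon-inducible GTPases, another group of immune GTPases, 10 were tested and 5 were called lower (against 2.28% of all genes), Gbp2, Gbp3, Gbp4, Gbp5 and Gbp7, with a median log2 change of -0.52 over the list. Gbp4 changed by -1.65 (SE 0.0641, adjusted p = 3.20e-06, limma). In KO cells none of the 10 was called with TGF-β, and the interaction was called for the same 5 genes, with a median of 0.49, against 1.86% of all genes. Of 11 BCL-2 family partners, which control the death of lymphocytes and with which some GIMAP proteins have been reported to interact, 10 were tested and 2 were called lower, Bcl2a1b and Bcl2l11 (median -0.23, against 2.28% of all genes called). Bcl2l11, which encodes the pro-apoptotic protein BIM, changed by -0.81 (SE 0.0689, adjusted p = 0.000135). Of 5 Atg8 family genes, the ubiquitin-like proteins of autophagosomes, Map1lc3a alone was called, as higher (median 0.28, against 3.42% of all genes called).

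DNase-seq shows accessible chromatin as DNase I hypersensitive sites (DHSs), called by the authors in each library alone, so the lists give presence and fold enrichment over local background with no error. In the window of the cluster with 10000 bases on each side (139286 bases), the WT lists held 25 DHSs (control) and 20 (both cytokines), out of 44298 and 33880 in all, and the KO lists held 21 and 17, out of 33665 and 27145. They merged into 27 sites, of which 16 were in all 4 lists. A DHS within 1000 bases of an annotated start was found for 6 members in control and 7 with both cytokines in WT, and for 7 and 6 in KO. The member that varied was Gimap4, whose start site (48634384 to 48634668) was listed for WT with both cytokines and for KO control alone, at ranks of 79.7% and 70.6%, among the weaker DHSs of each list. Gimap3 had none at its GENCODE start, while its RefSeq promoter lay in a site found in all 4 lists (48720678 to 48721123).

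The site at the shared GENCODE start of Gimap7 and Gimap1 (48668370 to 48668880), which overlaps an exon of each and holds the Gimap7 sequence printed above, was present in all 4 lists. In WT its fold enrichment was 12.1 for control and 11.0 for both cytokines, within the top 4.19% and 6.44% of each list by −log10 q. In KO it was 7.56 (13.4%) for control and 7.38 (14.7%) for both cytokines. The site was thus present in the WT culture with low Gimap7 RNA and in the cultures with high Gimap7 RNA. The sites at the starts of Gimap5 (48695941 to 48696356), Gimap6 (48657884 to 48658418), Gimap8 (48597010 to 48597397) and Gimap9 (48625871 to 48626519) were also in all 4 lists, with fold enrichment between 3.17 and 6.47. Gimap1 has 5 annotated starts, and its RefSeq promoter (48688796 to 48689095) overlapped another site found in all 4 lists (48688878 to 48689284). Fold enrichment there was 4.85 and 3.46 in WT and 3.71 and 3.17 in KO, control first. A site inside the Gimap1 model and in no exon of a member (48682779 to 48683353) had 10.2 and 8.79 in WT and 6.85 and 8.89 in KO, control first. With 1 library each and depth unknown, no difference between lists has a replicate check.

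**Figure D5:**
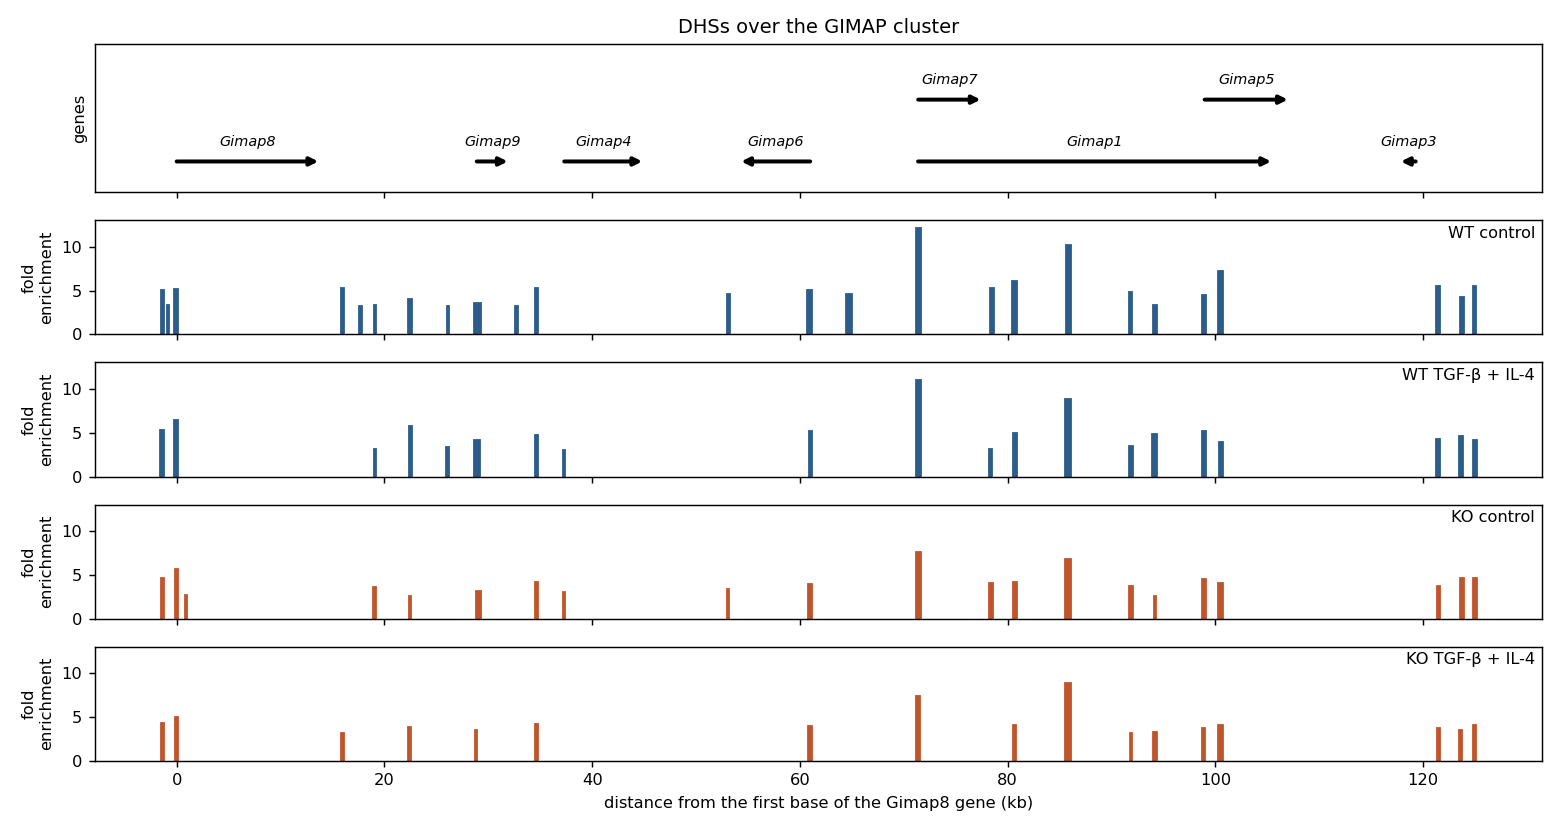
DHSs over the GIMAP cluster in 4 DNase-seq libraries (horizontal axis, distance in kb from the first base of Gimap8; vertical axes, fold enrichment over local background; arrows, genes by strand). The tallest DHS in both WT lists and in KO control is at the shared GENCODE start of Gimap7 and Gimap1, and 16 of 27 sites are in all 4 lists.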

How the data were processed

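The authors mapped Smart-seq2 RNA-seq and DNase-seq reads to mm9 with Bowtie2, dropped redundant reads and those of MAPQ 10 or less, and deposited RPKM per gene, computed with edgeR. DHSs were called by the authors with MACS (MACS2 in their processing notes), and the deposited lists give fold enrichment and −log10 q. Versions and the gene annotation are not given in the sources used here. RPKM were tested with limma 3.58.1 (R 4.3.3, trended moderation) after log2(RPKM + 1), in genes averaging at least 1 RPKM over the libraries of each fit, with the compared groups alone, and p-values were adjusted over all genes tested. The fits were tested on simulated data. All 8 members are described, with the 10 genes of most similar pattern and 3 related families, all chosen with earlier results of these data known. A replicate number was taken to mark 1 mouse of a genotype, which the sources used here do not state. The deviations of its libraries from group means had correlations from -0.088 to 0.554 in WT and -0.297 to 0.414 in KO. The main fits held no term for the mouse. Where groups of 3 libraries are compared, each replicate number enters a group once. The p-values then measure the spread between 3 libraries per group, which are 3 mice if that reading holds. In the comparison over all cultures each mouse enters 4 times, so its p-values measure the spread between libraries and not between mice. Columns read by position had a median within-group SD of 0.0746 to 0.0805 (log2) in WT, against 0.0990 to 0.150 by heading, and in KO 0.0805 to 0.116 against 0.0890 to 0.108. RPKM keep no read totals, so counting intervals were not computed. Alternatives covered the pseudocount, filter, scaling, model, replicate block, column reading, each library left out and the DHS threshold.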

Additional observations from a re-analysis of the deposited data

Results flagged for a closer look

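The effect of TGF-β differed between WT and KO by a test of the difference itself in 3 of 8 members, against 2.72% of all genes, by adjusted p alone, a rule added after the values were seen: Gimap7 (interaction 0.88 on the log2 scale), Gimap5 (0.42) and Gimap1 (0.39), with adjusted p of 0.000224, 0.000769 and 0.00217 in limma. Gimap7 alone also passed 1.5-fold. Reads in the stretches that the Gimap1 model shares with Gimap7 and Gimap5 could add to the count of 3, which was not tested. The effect of TGF-β on Gimap1 in WT differed with IL-4 present (0.29, adjusted p = 0.00604), under 1.5-fold, 1 of 8 against 2.77% of all genes by the same rule. These values rest on columns read by position, and no cause was tested.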

How the results depend on the processing

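Read by heading, the number of members called went from 1 to 0 for TGF-β and for TGF-β + IL-4 against control in WT, for TGF-β + IL-4 against IL-4 in WT and for the interaction of genotype and TGF-β, from 3 to 0 for KO against WT under TGF-β and under TGF-β + IL-4, and stayed at 2 over all cultures. With a minimum of 5 RPKM, Gimap7 was not tested in 3 WT comparisons, which leaves 0 called. TGF-β + IL-4 against IL-4 in WT also went to 0 with no filter on low values and with mice 1 and 3 alone. Median-ratio scaling gave 2 for TGF-β + IL-4 against control in WT. The interaction of genotype and TGF-β + IL-4 gave 1 with quantile normalization, with an adjusted p under 0.05 and in one fit of all 24 libraries. With no fold minimum, added after the values were seen, counts in either direction follow with the percent of all genes called. Against control in WT they were 5 for TGF-β (11.1%) and 4 for TGF-β + IL-4 (27.5%). For TGF-β + IL-4 in WT they were 2 against TGF-β (9.26%) and 3 against IL-4 (29.4%). For KO against WT they were 3 under control (4.65%), 6 under TGF-β (23.6%), 2 under IL-4 (5.11%) and 6 over all cultures (41.8%). The interaction of genotype and TGF-β gave 3 (6.66%) and that of the cytokines 1 (3.59%). Other counts in this paragraph lack the share of all genes and show only how far a count moved. Leaving out 1 library gave 1 to 2 for TGF-β and for TGF-β + IL-4 against control in WT, 0 to 1 for TGF-β + IL-4 against IL-4 in WT, for IL-4 and TGF-β + IL-4 in KO and for KO against WT under control, and 1 to 3 for KO against WT under TGF-β + IL-4. The replicate block, with the replicate number as the pairing, changed no count of members (1 for TGF-β against control in WT). Causes were not tested unless stated. Of 12 single called members, 10 lost their call by heading, and of the 3 that mice 1 and 3 could test, 1 lost it. Under the other alternatives, of 223 values of single called members 210 kept their call, 13 lost it and 0 changed sign. In 2 of these settings, an adjusted p under 0.05 and no fold minimum, a call could not be lost. The 3 comparisons in which Gimap7 was not tested at a minimum of 5 RPKM are not among the 223. The 210 that kept their call therefore do not measure how stable the calls are. With the heading reading and the DHS counts included, 312 of 349 counts under an alternative were the same or within 1.5 times. These include counts of 0 that stayed at 0, so this share does not measure how stable the calls are. The counts of DHSs and of starts with a DHS stayed within 1.5 times under both alternatives.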
